A study of Homo sapiens with 3 samples.

Results

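ABC transporters, the pumps built around the ATP-binding cassette, were described in the human leukaemia line MV-4-11. The members are all rows of the deposited expression table whose symbol is ABC, a subfamily letter from A to G and a number, which gave 45 genes out of 20332. Of these, 24 averaged at least 1 CPM (read counts scaled to library size) over the libraries and are called measured here. The other 21 lay below that level, ABCB1 among them.

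MV-4-11 cells carry a KMT2A fusion and an activated FLT3 receptor, and the labels give their genotype as wild type, with no other allele. FL-Fc-DM1 was added at 0.5 or 1.5 nM for 1 day, next to untreated cells grown for as long in the same medium, and each group is 1 library. The labels do not spell out the drug's name, which is read here as FLT3 ligand joined to an Fc part and to DM1, a tubulin-binding maytansinoid. The table numbers its columns 0, 1 and 2 and prints no dose. Reading 1 as 0.5 nM and 2 as 1.5 nM follows the order of those numbers, and every statement on dose rests on it.

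ABC proteins bind and hydrolyse ATP to move substrates across membranes. Subfamilies B, C and G include the drug pumps P-glycoprotein (ABCB1), MRP1 (ABCC1) and BCRP (ABCG2). P-glycoprotein is known to carry maytansinoids such as DM1 out of cells, and its presence is a recognised form of resistance to such conjugates. Other members move sterols and phospholipids, serve mitochondria, peroxisomes or lysosomes, or, in subfamilies E and F, act on ribosomes and cross no membrane.

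No value has a replicate, so no test was made and each ratio compares libraries, not conditions. Brackets hold exact 95% Clopper-Pearson intervals for counting error only. Libraries held 22329955, 16427203 and 16864853 rounded counts in the untreated, 0.5 nM and 1.5 nM cells. All 8 markers fixed for a myeloid leukaemia line were measured, with summed levels of 1190, 1190 and 1140 CPM. The sum does not show each marker, as their log2 ratios at 1.5 nM against untreated ran from -0.37 (HOXA9) to 0.32 (PTPRC). T cell and erythroid markers were at 0 in each library. Of the 7 epithelial markers EPCAM was at 0, and CDH1 and KRT19 never passed 3 counts. DSP had 32, 27 and 0 counts and DSG2 21, 18 and 0, while KRT8 had 33, 32 and 44 and KRT18 56, 24 and 31. The 7 summed to 6.49, 6.30 and 4.41 CPM, and their part in the results was not tested. Of the 26 ABC genes with 10 or more counts in both other libraries, 0 had 2 or fewer at 1.5 nM as DSP did, against 0.46% of all such genes. FLT3, the receptor of FLT3 ligand, stood at 506, 489 and 448 CPM in that order. In RNA from whole cultures, fewer cells of a type and less RNA per cell cannot be told apart.

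Upstream sequence is shown for 4 members on which the results turn. These are ABCA1, ABCA6 and ABCA7, the genes that stood above the untreated library by a log2 ratio of 0.5 or more at 1.5 nM, and ABCB1, which was nearly without reads. Each stretch is the 160 bases before a RefSeq start on GRCh38.p14, 5′ to 3′ on the gene's strand. In ABCA1 the capitals mark the match to GGTNA followed, after 5 free bases, by GGTNA again (N is any base). That is a loose form of the direct repeat that liver X receptors bind, here on the opposite strand. In the others they mark CCAAT or its reverse ATTGG, the box that NF-Y binds. The stretches lie at chr9:104928156-104928315 (minus strand) for ABCA1, chr17:69141896-69142055 (minus) for ABCA6, chr19:1039947-1040106 (plus) for ABCA7 and chr7:87600885-87601044 (minus) for ABCB1.
ABCA1: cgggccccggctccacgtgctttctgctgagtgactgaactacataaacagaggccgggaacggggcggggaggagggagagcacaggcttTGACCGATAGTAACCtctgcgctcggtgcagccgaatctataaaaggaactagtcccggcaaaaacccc
ABCA6: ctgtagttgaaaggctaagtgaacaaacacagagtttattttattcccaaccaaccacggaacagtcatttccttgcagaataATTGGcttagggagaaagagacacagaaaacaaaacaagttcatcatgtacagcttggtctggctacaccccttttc
ABCA7: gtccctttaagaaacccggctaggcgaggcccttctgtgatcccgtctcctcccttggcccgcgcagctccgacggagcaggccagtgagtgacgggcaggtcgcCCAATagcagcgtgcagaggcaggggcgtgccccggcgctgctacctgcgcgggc
ABCB1: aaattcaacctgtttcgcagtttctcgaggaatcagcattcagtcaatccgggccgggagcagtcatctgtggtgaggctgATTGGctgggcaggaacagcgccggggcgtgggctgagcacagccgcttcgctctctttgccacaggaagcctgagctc

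RefSeq promoters of 300 bases were matched by symbol for 35 of the 45 members, which have 53 starts between them. The direct repeat was found on either strand in 1 of the 53 member promoters (1.89%), that of ABCA1, and in 0.626% of all 35116 promoters. ABCA1 is a known target of liver X receptors and the motif was chosen after the values were seen. Its match there was thus close to given in advance. The CCAAT box was found in 12 of the 53 member promoters (22.6%) and in 34.6% of all promoters. The antioxidant response core TGACNNNGC, to which NRF2 binds, was also in 12 of the 53 (22.6%), against 13.3% of all promoters. The members with that core included ABCC4, ABCC10, ABCD4 and ABCG2. These are matches of letters within short windows and were not set against the expression values by any test.

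The level of the family was set by few genes. TPM, the deposited measure that is scaled to transcript length, summed to 1075 over the 45 members in untreated cells, 1095 at 0.5 nM and 1023 at 1.5 nM. ABCB10 alone held 34.9%, 34.1% and 31.5% of that sum, and ABCE1 26.4%, 27.0% and 26.4%. ABCB10 ranked 358, 353 and 414 among all genes of the table by TPM. Next in each library came ABCF1 at 62.3, 61.7 and 56.9 TPM. The median TPM of the measured members was 18.7, 17 and 19.4, against 24.8, 26.2 and 25.4 for all 11322 genes analysed.

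**Figure D1:**
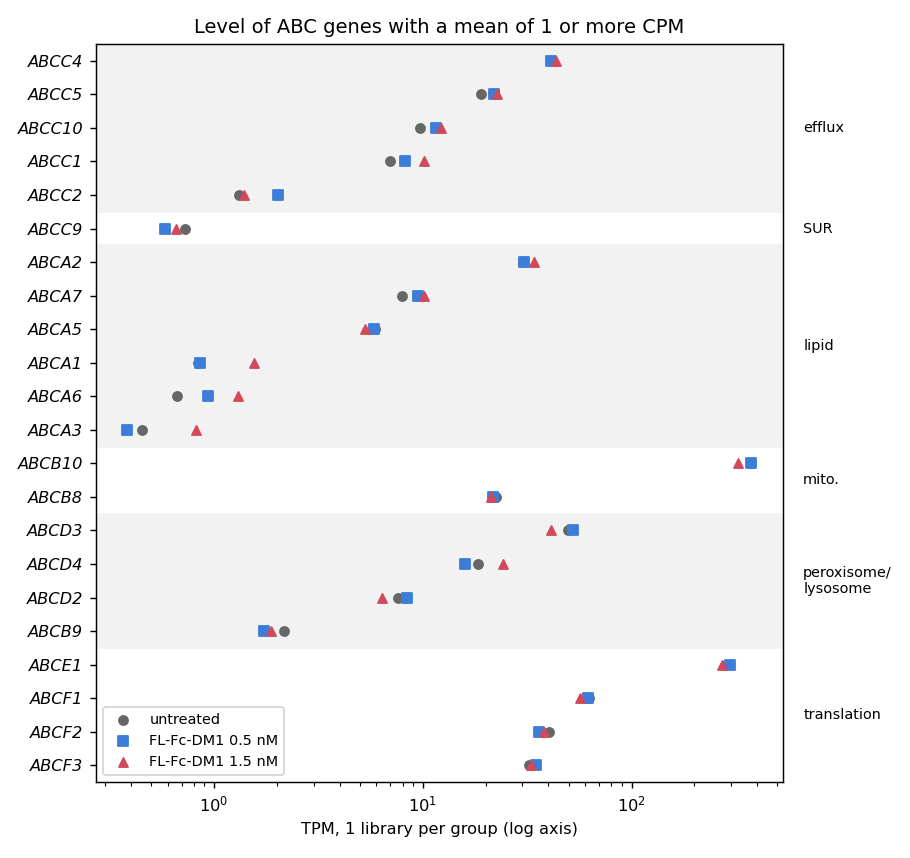
TPM of the measured ABC genes named in the text, on a log axis, 1 point per library, with genes grouped by role (SUR is the sulfonylurea receptor). ABCB10 and ABCE1 stand apart near or above 270 TPM, while ABCA1, ABCA3, ABCA6 and ABCC9 lie at or below 1.547 TPM in each library.

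Few members differed from the untreated library by a log2 ratio of 0.5 (1.41-fold) or more, and none by a log2 ratio of 1 (2-fold). Only 24 members were measured and few of all genes passed either, so these counts are not read as a result about the family. At 0.5 nM, 1 of 24 measured members (ABCA6) was higher by 0.5 or more, where 3.45% of all genes were. None was lower by 0.5 (1.47% of all genes), higher by 1 (0.53%) or lower by 1 (0.23%). At 1.5 nM, 3 of 24 (ABCA1, ABCA6 and ABCA7) were higher by 0.5 or more, which is 12.5% of the members against 6.17% of all genes. None was lower by 0.5 (3.29%), higher by 1 (1.47%) or lower by 1 (0.574%). At 1.5 nM against 0.5 nM, 1 of 24 (ABCA1) was higher by 0.5 or more (3.38% of all genes). None was lower by 0.5 (2.71%), higher by 1 (0.477%) or lower by 1 (0.495%).

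The median log2 ratio of the 24 members was -0.05 at 0.5 nM and 0.03 at 1.5 nM, against 0.00 over all genes for both. For 1.5 nM against 0.5 nM it was 0.09, against 0.00 over all genes. Both comparisons with untreated cells use the same untreated library, so they are not independent of each other.

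**Figure D2:**
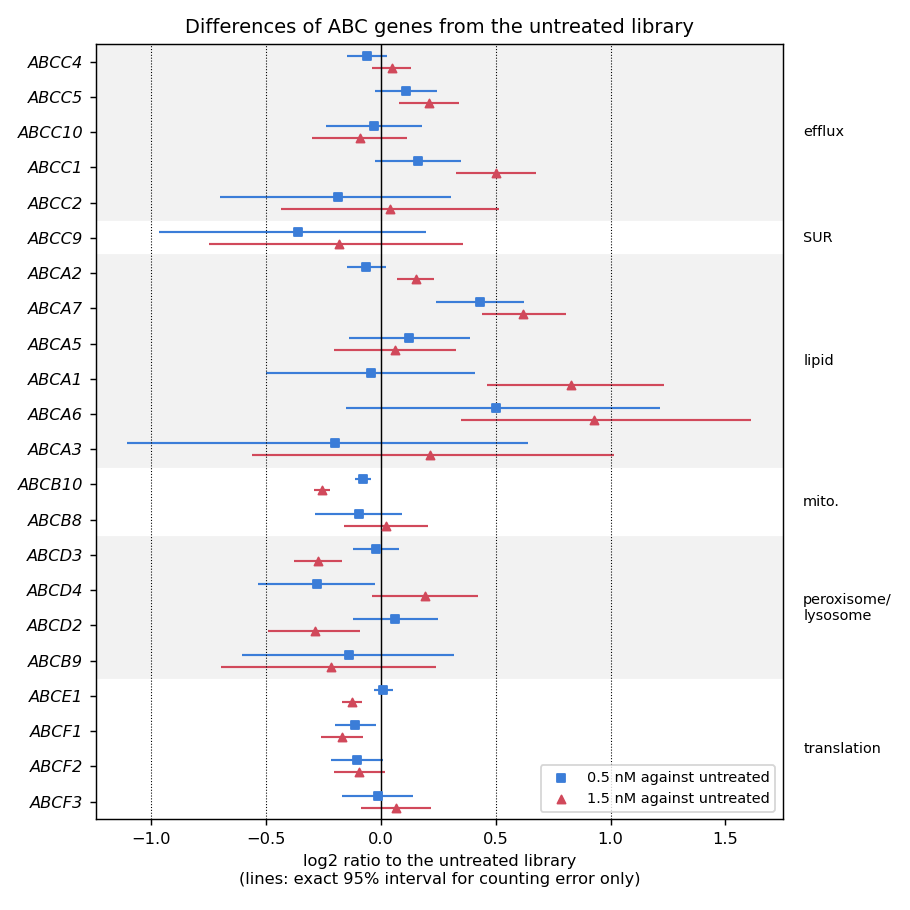
Log2 ratio to the untreated library of the measured ABC genes named in the text at 0.5 nM (squares) and 1.5 nM (triangles), with the exact 95% interval for counting error and dotted lines at 0.5 and 1 in both directions. The triangles of ABCA1, ABCA6 and ABCA7 lie between 0.62 and 0.93, that of ABCC1 at 0.50, and the others shown between -0.29 and 0.21.

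Among the drug and anion efflux members, the pump best known for carrying DM1 was nearly without reads. ABCB1 (ENSG00000085563) had 2 counts in untreated cells, 1 at 0.5 nM and 0 at 1.5 nM. A count of 0 allows up to 0.177 CPM in the 1.5 nM library, the level that 3 counts give. All 3 values lie at or under 3 counts, so no fold is given and no difference was detectable at this depth. ABCB4, its neighbour on chromosome 7 and a phosphatidylcholine flippase of liver, had 2, 1 and 3 counts.

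ABCG2 (ENSG00000118777), the breast cancer resistance pump, had 8, 4 and 2 counts in the untreated, 0.5 nM and 1.5 nM libraries. Its TPM values of 0.288, 0.118 and 0.495 run in another order than its counts, and with so few reads neither order is read as a change. The anion pump gene ABCC3 had 0, 1 and 1 counts, and ABCC6, which has near-identical pseudogenes, had 0, 3 and 1. ABCC11 had 0, 0 and 1, while ABCB5 and ABCC12 were at 0 in all libraries.

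The efflux pump measured at the highest level was ABCC4, which exports cyclic nucleotides and drugs. ABCC4 stood at 41.0 TPM in untreated cells, 41.1 TPM at 0.5 nM and 43.6 TPM at 1.5 nM. Its log2 ratio to untreated was -0.06 [-0.15, 0.03] at 0.5 nM and 0.05 [-0.04, 0.13] at 1.5 nM. The 3 libraries thus lay close together in a gene with 1885 or more counts in each.

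ABCC1 (ENSG00000103222) encodes MRP1, the exporter of glutathione conjugates and leukotriene C4. ABCC1 had 513, 430 and 560 counts, which are 23.3 CPM in untreated cells, 26.0 CPM at 0.5 nM and 33.0 CPM at 1.5 nM. The log2 ratio to untreated was 0.16 [-0.03, 0.35] at 0.5 nM and 0.50 [0.33, 0.68] at 1.5 nM, a value of 0.499 before rounding and so just under the threshold of 0.5. ABCC1 passed it under some other settings, with 0.53 when scaled by library totals and 0.54 on the deposited TPM. Under others ABCC1 stayed below it, with 0.48 on log2(TPM + 1) and 0.475 with the trend in GC content removed. Without a filter ABCC1 had 0.489, and among genes with whole counts alone 0.493. At 1.5 nM against 0.5 nM the log2 ratio of ABCC1 was 0.34 [0.16, 0.53]. The 1.5 nM library was the highest of the 3, and the untreated one the lowest.

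ABCC5, which exports cyclic GMP among other anions, had 46.9, 50.6 and 54.2 CPM and a log2 ratio of 0.21 [0.08, 0.34] at 1.5 nM. ABCC10, an exporter with taxanes among its substrates, had 20.6, 20.2 and 19.4 CPM and a log2 ratio of -0.09 [-0.30, 0.12] at 1.5 nM. ABCC2, the anion pump of the bile canaliculus, had 87, 57 and 69 counts, with 0.04 [-0.44, 0.51] at 1.5 nM. Of the 12 efflux members, 5 were thus measured, with a median log2 ratio of -0.03 at 0.5 nM and 0.05 at 1.5 nM. ABCC9, a sulfonylurea receptor of potassium channels rather than a pump, had 3.22, 2.48 and 2.82 CPM, with a count that is not whole in each library. The related ABCC8 had 1, 0 and 0 counts.

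**Figure D3:**
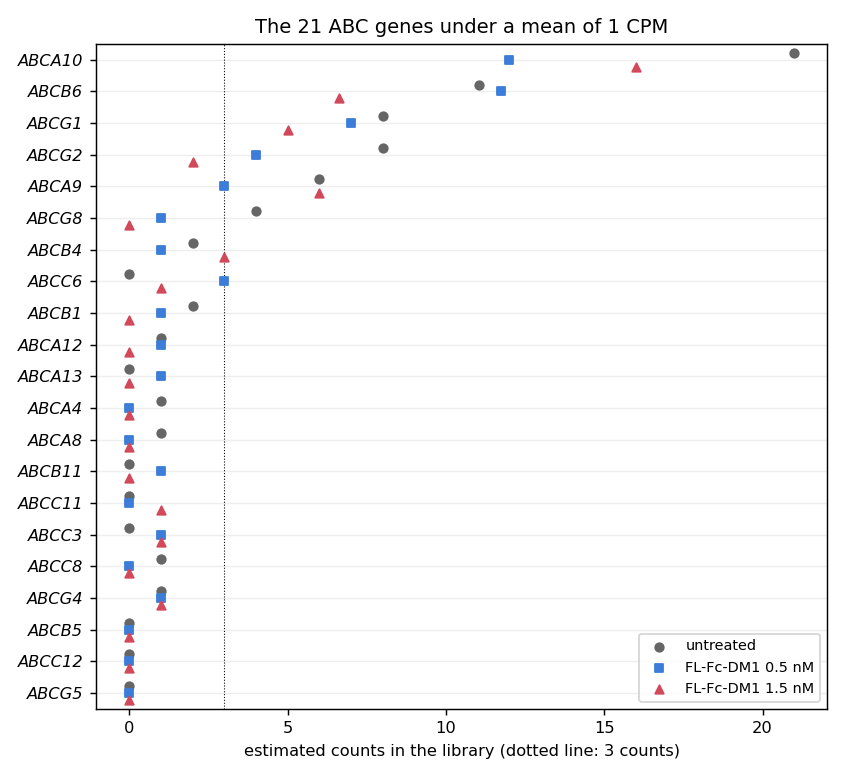
Estimated counts per library of the 21 ABC genes under a mean of 1 CPM, with a dotted line at 3 counts. ABCB5, ABCC12 and ABCG5 are at 0 in all 3 libraries, 15 genes never pass 3 counts, and ABCA10 is the highest with 21, 12 and 16.

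The sterol and phospholipid members held the largest differences. Of the 18 in that group 6 were measured, all of subfamily A. At 1.5 nM all 6 lay above 0 by counts, from 0.06 to 0.93, and at 0.5 nM 3 did. Of all 24 measured members, 14 (58.3%) lay above 0 at 1.5 nM and 8 (33.3%) at 0.5 nM. Over all genes the shares were 49.8% and 50.6%. Genes are not replicates of a condition, and the signs in this group were not tested. The intervals of ABCA3 and ABCA5 include 0, and on the deposited TPM ABCA5 lay at -0.16. The median log2 ratio of the 6 was 0.42 at 1.5 nM and 0.04 at 0.5 nM. The medians of the other role groups with more than 1 measured member ran from -0.22 to 0.05 at 1.5 nM.

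ABCA1 (ENSG00000165029) moves cholesterol and phospholipid to apolipoprotein A-I and is a classic target of liver X receptors. A loose match to their repeat is shown above in its promoter, and its part in these values was not tested. ABCA1 had 99 counts in untreated cells, 72 at 0.5 nM and 137 at 1.5 nM, which are 4.49, 4.36 and 8.06 CPM. The untreated and 0.5 nM libraries lay close together, and the 1.5 nM library stood apart. The log2 ratio was -0.04 [-0.50, 0.41] at 0.5 nM and 0.83 [0.46, 1.23] at 1.5 nM. The value at 1.5 nM lay above that of 97.7% of all genes. At 1.5 nM against 0.5 nM it was 0.87 [0.47, 1.32].

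ABCA6 (ENSG00000154262) is a little-studied relative of ABCA1 in a row of A genes on chromosome 17. ABCA6 had 37 counts in untreated cells, 40 at 0.5 nM and 56 at 1.5 nM, which are 1.68, 2.42 and 3.30 CPM. The log2 ratio was 0.50 [-0.15, 1.21] at 0.5 nM and 0.93 [0.35, 1.61] at 1.5 nM. The 1.5 nM library was again the highest, and the interval at 0.5 nM includes 0.

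ABCA7 (ENSG00000064687), a phospholipid transporter also known as a risk gene of Alzheimer's disease, was the best covered of the 3. ABCA7 had 451, 456 and 535 counts, which are 20.5 CPM in untreated cells, 27.6 CPM at 0.5 nM and 31.5 CPM at 1.5 nM. The log2 ratio was 0.43 [0.24, 0.62] at 0.5 nM and 0.62 [0.44, 0.80] at 1.5 nM. On the deposited TPM the difference was smaller, with 7.98, 9.48 and 10.1 TPM and a log2 ratio of TPM of 0.25 at 0.5 nM and 0.35 at 1.5 nM.

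ABCA2, which acts in sterol traffic of late endosomes and lysosomes, was the most abundant of the group at 30.3, 30.6 and 34.2 TPM. Its log2 ratio of counts was -0.06 [-0.15, 0.02] at 0.5 nM and 0.15 [0.07, 0.23] at 1.5 nM. ABCA5, found in lysosomes and late endosomes, had 12.1, 13.2 and 12.7 CPM, with 0.06 [-0.20, 0.33] at 1.5 nM. ABCA3, known for loading surfactant lipid in the lung, had 31, 20 and 28 counts, with 0.21 [-0.56, 1.01] at 1.5 nM.

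ABCA5, ABCA6, ABCA8, ABCA9 and ABCA10 stand side by side on chromosome 17 with no other protein-coding gene between them in RefSeq. Their counts in untreated, 0.5 nM and 1.5 nM cells differed widely within that row. ABCA5 had 267, 218 and 215, ABCA10 had 21, 12 and 16, ABCA9 had 6, 3 and 6, and ABCA8 had 1, 0 and 0. ABCA6 was thus the only gene of the row past a log2 ratio of 0.5 among those measured, which were ABCA5 and ABCA6.

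The other sterol and lipid pumps were near zero. ABCG1, which passes cholesterol to high-density lipoprotein and is a liver X receptor target like ABCA1, had 8, 7 and 5 counts. ABCG4 had 1 in each library, and ABCG8 had 4, 1 and 0. ABCG5, the partner of ABCG8 in sterol export, was at 0 throughout. Subfamily G thus had 0 of its 5 genes measured. The bile salt pump gene ABCB11 had 0, 1 and 0 counts, the skin lipid transporter gene ABCA12 had 1, 1 and 0, ABCA13 had 0, 1 and 0, and the retinal ABCA4 had 1, 0 and 0.

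**Figure D4:**
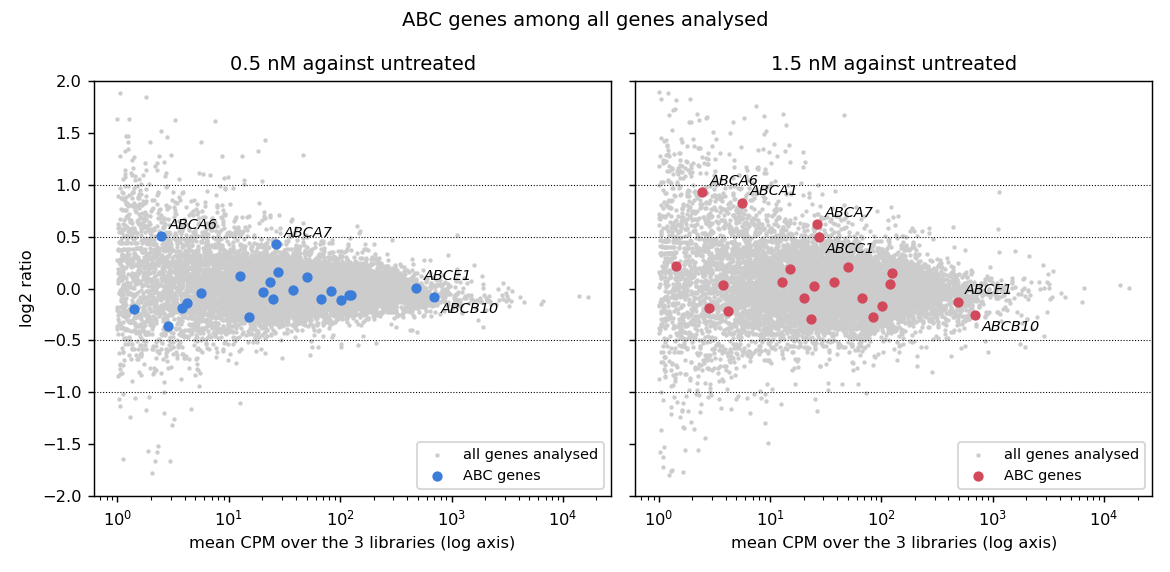
Log2 ratio to the untreated library against mean CPM (log axis) for all 11322 genes analysed (grey) and the measured ABC genes named in the text (coloured), at 0.5 nM and 1.5 nM, with dotted lines at 0.5 and 1 in both directions. At 1.5 nM, ABCA6, ABCA1 and ABCA7 lie above 0.5 and the other members within 0.5 of 0; 12 genes at 0.5 nM and 32 at 1.5 nM, none of them ABC genes, lie beyond the axis limit of 2.

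The mitochondrial members were led by ABCB10 (ENSG00000135776), an inner membrane transporter needed for haem synthesis in red cell precursors. ABCB10 had 16420, 11664 and 10604 counts, which are 745 CPM in untreated cells, 706 CPM at 0.5 nM and 624 CPM at 1.5 nM. The log2 ratio was -0.08 [-0.11, -0.04] at 0.5 nM and -0.26 [-0.29, -0.22] at 1.5 nM. This order, with the 1.5 nM library lowest, also holds on the TPM scale at 375, 373 and 322. RefSeq lists 3 pseudogenes of ABCB10, and it also lists pseudogenes of ABCA3, ABCC6, ABCE1 and ABCF2. Reads shared with such copies cannot be told apart here, so the levels of these members are uncertain. The counts of ABCA3, ABCB10, ABCC6 and ABCE1 were whole in each library, and those of ABCF2 were not all whole.

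ABCB8, also of the inner membrane, had 25.3, 23.7 and 25.7 CPM, with 0.02 [-0.16, 0.21] at 1.5 nM. ABCB6, a porphyrin transporter that also carries a blood group, had 11.06, 11.75 and 6.63 estimated counts, too few to be measured.

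Of the peroxisomal and lysosomal members all 5 were measured, and their median log2 ratio was -0.14 at 0.5 nM and -0.22 at 1.5 nM. ABCD3, which imports branched-chain and bile acid precursors into peroxisomes, had 89.1 CPM in untreated cells, 87.9 CPM at 0.5 nM and 73.7 CPM at 1.5 nM. Its log2 ratio was -0.02 [-0.12, 0.08] at 0.5 nM and -0.27 [-0.38, -0.17] at 1.5 nM. ABCD2, a peroxisomal fatty acid transporter, had 24.7, 25.8 and 20.2 CPM, with 0.06 [-0.12, 0.25] at 0.5 nM and -0.29 [-0.49, -0.09] at 1.5 nM. For ABCD2 and ABCD3 the untreated and 0.5 nM libraries lay together and the 1.5 nM library below them.

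ABCD4, which acts in the release of vitamin B12 from lysosomes, had 15.3, 12.6 and 17.5 CPM, with -0.28 [-0.54, -0.03] at 0.5 nM and 0.19 [-0.04, 0.42] at 1.5 nM. At 1.5 nM against 0.5 nM, ABCD4 had 0.47 [0.21, 0.74], the second largest of the 24 members after ABCA1. ABCB9, a lysosomal peptide transporter, had 4.54, 4.12 and 3.88 CPM, with -0.22 [-0.70, 0.24] at 1.5 nM, from counts that are not whole.

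The members that act in translation were abundant and lay near the untreated level. ABCE1 (ENSG00000164163), which splits ribosomes after termination, had 497 CPM in untreated cells, 500 CPM at 0.5 nM and 455 CPM at 1.5 nM. Its log2 ratio was 0.01 [-0.03, 0.05] at 0.5 nM and -0.13 [-0.17, -0.08] at 1.5 nM. ABCF1, which binds the initiation factor eIF2, had 109, 101 and 96.8 CPM, with -0.11 [-0.20, -0.02] at 0.5 nM and -0.17 [-0.26, -0.08] at 1.5 nM. ABCF3 had 36.9, 36.5 and 38.6 CPM, with 0.07 [-0.09, 0.22] at 1.5 nM.

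ABCF2 shares its reads with the readthrough gene ABCF2-H2BK1, whose symbol lies outside the rule. ABCF2 had 1557.27, 1085 and 1124.59 estimated counts, and the readthrough gene had 1727.73, 1126 and 1221.41. The sums of both are whole numbers, 3285, 2211 and 2346. The log2 ratio of ABCF2 alone was -0.11 [-0.22, 0.01] at 0.5 nM and -0.09 [-0.21, 0.02] at 1.5 nM. That of the summed pair was -0.16 [-0.23, -0.08] at 0.5 nM and -0.11 [-0.19, -0.03] at 1.5 nM.

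Counts and TPM gave different ratios for some members. For ABCC2 at 0.5 nM the log2 ratio was -0.19 from counts and 0.61 from TPM, with 2.02 TPM at 0.5 nM and 1.32 TPM in untreated cells. For ABCA3 at 1.5 nM it was 0.21 from counts and 0.87 from TPM, with 0.823 TPM at 1.5 nM and 0.450 TPM in untreated cells. ABCC10 at 1.5 nM had -0.09 from counts and 0.32 from TPM. For ABCA1, ABCA6, ABCB10 and ABCC1 the measures differed by at most 0.07 at either dose. The sources used here do not say how TPM was made from the reads, and the cause of these gaps was not tested.

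**Figure D5:**
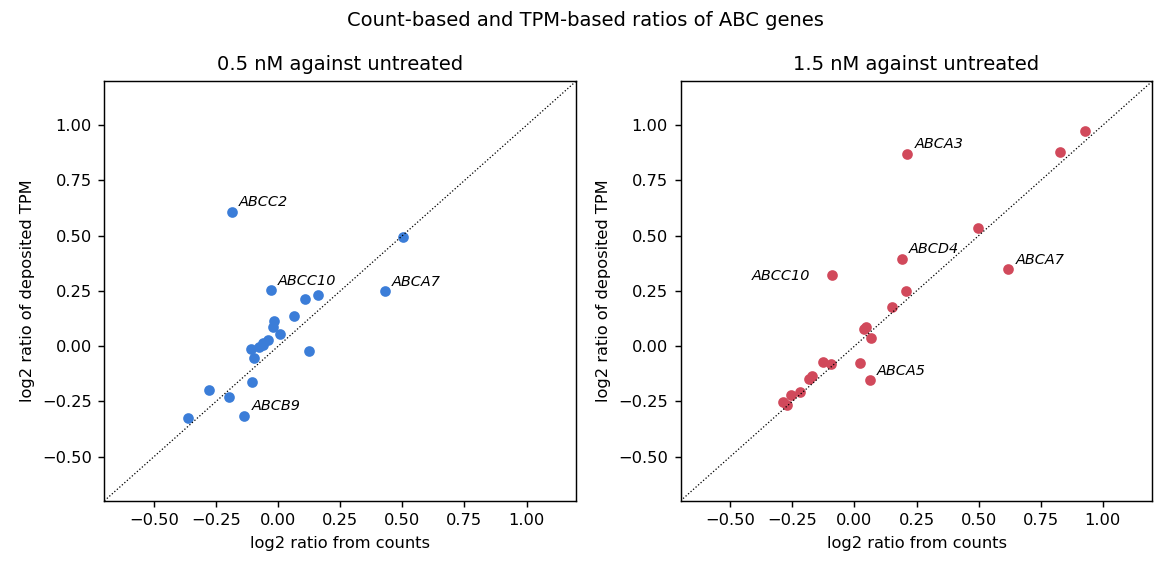
Log2 ratio of deposited TPM against the log2 ratio from counts for the measured ABC genes named in the text at 0.5 nM and 1.5 nM against untreated cells; the dotted line marks equal values. Most genes lie near the line, and ABCC2 (0.61 against -0.19) and ABCA3 (0.87 against 0.21) lie farthest above it.

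Partner genes were taken from 6 lists chosen for the roles above. Of 3 ABC genes with other names, CFTR was at 0 and the peptide transporters of antigen loading were measured. TAP1 stood at 15.7 CPM in untreated cells, 19.1 CPM at 0.5 nM and 18.1 CPM at 1.5 nM, with log2 ratios of 0.29 [0.07, 0.51] and 0.21 [-0.02, 0.43] at the 2 doses in rising order. TAP2, whose counts are not whole, had 0.01 and 0.11.

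Of 16 liver X receptor and cholesterol efflux genes, 15 were measured, and their median log2 ratio to untreated was 0.11 for the higher dose and -0.05 for the lower. None was higher (3.45% of all genes) or lower (1.47%) by 0.5 or more at 0.5 nM. At 1.5 nM, 1 of the 15 was higher by 0.5 or more (6.17% of all genes) and none lower (3.29%). That gene was APOC1, an apolipoprotein gene, with 5.49 CPM in untreated cells, 6.72 CPM at 0.5 nM and 8.65 CPM at 1.5 nM, a ratio of 0.65 [0.30, 1.02] at 1.5 nM. SREBF1, the lipid synthesis regulator and also a liver X receptor target, was lower, with -0.36 [-0.51, -0.21] at 0.5 nM and -0.43 [-0.58, -0.27] at 1.5 nM, from counts that are not all whole. APOC1 and SREBF1, both targets of those receptors, thus lay on opposite sides of 0.

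Of 14 glutathione synthesis and conjugation genes, 13 were measured, with medians of 0.11 at 0.5 nM and 0.16 at 1.5 nM. None was higher (3.45% of all genes) or lower (1.47%) by 0.5 or more at 0.5 nM. At 1.5 nM, 1 of the 13 was higher by 0.5 or more, where 6.17% of all genes were. LTC4S makes leukotriene C4, which ABCC1 exports, and had 44, 37 and 56 counts, a ratio of 0.69 [0.13, 1.33] at 1.5 nM. GGT1, which cleaves exported glutathione, had 0.30 [0.06, 0.54] at 1.5 nM, from counts that, unlike those of LTC4S, are not all whole.

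The peroxisome list had 12 measured genes of 12, with medians of 0.05 at 0.5 nM and 0.04 at 1.5 nM and none past 0.5. EHHADH, an enzyme of peroxisomal beta oxidation, had 0.32 [-0.01, 0.65] at 1.5 nM. The 14 mitochondrial iron-sulfur and haem genes had medians of -0.04 and 0.00, again with none past 0.5. ALAS1, which starts haem synthesis, had 63.9 CPM in untreated cells, 73.7 CPM at 0.5 nM and 82.6 CPM at 1.5 nM, a ratio of 0.37 [0.26, 0.48] at 1.5 nM. ALAS1 stood higher in the 1.5 nM library while ABCB10 stood lower there. The 10 ribosome recycling and initiation partners had medians of -0.02 and -0.06 with none past 0.5. EIF2AK4, the kinase GCN2, had 0.24 [0.14, 0.34] and EIF2S1 -0.16 [-0.22, -0.10] at 1.5 nM. Of all genes, 3.45% were higher and 1.47% lower by 0.5 or more at 0.5 nM, and 6.17% and 3.29% at 1.5 nM. In lists this short, none past 0.5 is not read as a result about the list.

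Ratios over all genes moved with transcript GC content. In the tenth of genes poorest in GC the median log2 ratio was 0.08 at 0.5 nM and -0.03 at 1.5 nM, and in the tenth richest in it -0.10 and 0.06. Between the doses (1.5 nM against 0.5 nM) these medians were -0.10 for the poorest and 0.15 for the richest. Measured members spanned 34.3% to 63.8% GC. With the GC trend removed, ABCA1, ABCA6 and ABCA7 had 0.84, 0.96 and 0.57 at 1.5 nM, so those 3 stayed above 0.5. At 0.5 nM the same step gave ABCA7 0.52 and ABCA6 0.43, which puts ABCA7 past 0.5 there in place of ABCA6.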

How the data were processed

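The authors deposited 1 table with an estimated count and a TPM value per gene in each of 3 libraries of polyadenylated RNA. The tools named, per the submitters' processing notes, are StringTie 1.3.1, HISAT2, fastp 0.18.0, edgeR and DESeq2. What each tool did, the reference build and the gene models were not given in the sources used here. The deposited estimated counts have totals that differ between libraries and are taken as not normalized, and 12.7%, 12.3% and 12.0% of them were not whole in the untreated, 0.5 nM and 1.5 nM libraries. The deposited TPM values sum to 1000000 in each.

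Counts were rounded, genes averaging at least 1 CPM were kept (11322), and library sizes were scaled by TMM (edgeR 4.0.16, run in R 4.3.3). The TMM factors were 0.987, 1.005 and 1.008. Log2 ratios used a prior count of 2. Exact Clopper-Pearson intervals at 95% came from the 2 rounded counts with scipy 1.17.1. Intervals and the floor of 3 counts (0.136, 0.182 and 0.177 CPM) cover counting error only and treat each read as independent. PCR copies are not independent molecules, so the intervals can be too narrow and the floor too low. Ratios were checked on simulated counts. GENCODE release 29 gave a transcript GC content for 99.4% of those genes. Promoter sequences are from RefSeq (GRCh38.p14).

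The members and lists were chosen with earlier results of these data known. Named with values were members past a log2 ratio of 0.5 in any comparison, 10 preset members, the other measured members more briefly, FLT3, and the 2 genes of each partner list with the largest absolute ratio at 1.5 nM. Some of these genes are not reported here, though counts, sums and medians over groups include them. The motifs, the printed promoters and the comparison of TPM with counts were chosen after the values were seen. A count that is not whole is taken as a sign of reads shared with another gene.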

Additional observations from a re-analysis of the deposited data

How the results depend on the processing

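With 1 library per group, no library could be left out. No paired analysis was possible because each group has a single sample and the labels carry no replicate numbers. Each ratio and count was recomputed with DESeq2 1.42.0 size factors, library totals, a prior count of 0.5, no filter, a mean of 5 or more CPM, log2(TPM + 1), genes with whole counts alone and, chosen after seeing the data, the GC trend removed. The median of the members stayed between -0.06 and 0.01 at 0.5 nM, between 0.00 and 0.06 at 1.5 nM and between 0.00 and 0.10 at 1.5 nM against 0.5 nM. At 0.5 nM against untreated, the 1 member past 0.5 became 0 with DESeq2 size factors, log2(TPM + 1), a mean of 5 CPM and whole counts alone, with ABCA6 at the threshold (0.50), at 0.22 on log2(TPM + 1), or filtered out at 5 CPM. At 1.5 nM against untreated, the 3 members past 0.5 became 0 with log2(TPM + 1), where ABCA1, ABCA6 and ABCA7 had 0.47, 0.47 and 0.31. TPM without a pseudocount gave 0.88, 0.97 and 0.35. The 3 became 4 with library totals and with a prior count of 0.5, where ABCC1 had 0.53 and 0.50. With a mean of 5 CPM the count stayed at 3, but ABCA6 was filtered out and ABCC1 entered at 0.51. At 1.5 nM against 0.5 nM, the 1 member became 2 with the GC trend removed, as ABCA6 had 0.53. With log2(TPM + 1) the count there stayed at 1 but the gene changed, with ABCA1 at 0.46 and ABCD4 at 0.56. Without a filter, 42 members entered, with 4 higher and 4 lower by 0.5 at 0.5 nM (8 in all), 7 and 7 (14) at 1.5 nM, and 4 and 8 (12) between the doses; past a log2 ratio of 1 there were 1 higher at 0.5 nM and 2 lower at 1.5 nM. The added ones are members under 1 CPM, and ABCA6 had 0.49 at 0.5 nM there, just under the threshold. Shares of all genes were taken only under the settings of the results above. The recomputed counts are therefore not read as a result about the members. Over the alternatives, 38 of 38 values of members past 0.5 kept their sign and 29 also stayed past 0.5. These values were picked for being past 0.5 and recomputed from the same reads. Library totals moved the median of all genes at 1.5 nM against untreated by only 0.03. Kept signs were therefore close to given in advance and are no support for a difference. Of 213 values of named members, 10 moved outside their counting interval, 8 with log2(TPM + 1) and 2 with the GC trend removed. The GC ones are ABCE1, at -0.06 in place of 0.01 for 0.5 nM against untreated and -0.04 in place of -0.14 between the doses. The depth leaves 15 members at 3 or fewer counts in each library, ABCB1 among them, where no difference is detectable.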
